A study of Homo sapiens with 96 samples.

Results

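The 10 genes described here encode enzymes that make serine, glycine, folate-bound one-carbon units, asparagine and proline. They were taken from the deposited table of 58434 genes as the rows whose Ensembl identifiers map to PHGDH, PSAT1, PSPH, SHMT1, SHMT2, MTHFD2, MTHFD1L, ALDH1L2, ASNS and PYCR1. All 10 were found, each as 1 row, and all 10 passed the filter on low values in both fits. The rule is a list of symbols and uses no measured value, but the list was chosen with earlier results of these data known. Counts set beside those of all genes are therefore descriptive. PYCR1 makes proline, so the group is wider than serine, one-carbon and asparagine synthesis alone. On GRCh38 (GENCODE 29), PHGDH lies on chromosome 1, MTHFD2 on chromosome 2, MTHFD1L on chromosome 6, PSPH and ASNS on chromosome 7, and PSAT1 on chromosome 9. ALDH1L2 and SHMT2 lie on chromosome 12, and SHMT1 and PYCR1 on chromosome 17, so the 10 genes do not form 1 cluster.

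The study sequenced polyadenylated RNA from derivatives of H9, a human embryonic stem cell line, in 96 libraries, 8 for each of 12 groups. The exposed groups were neuron-astrocyte co-cultures at day 10 that had received acrylamide, chlorpyrifos, fluoxetine hydrochloride, methyl mercury chloride or valproic acid sodium, each at an exposure level named IC5 and another named IC20/100. The solvent was culture medium for acrylamide and valproic acid. It was dimethyl sulfoxide (DMSO) for the other 3 compounds, and made up 0.25% of the final volume. The controls were unexposed day 10 co-cultures, and the neural progenitor cells (NPC) from which the co-cultures were grown formed the twelfth group, sampled at day 0. All groups share the H9 background and culture at 3% oxygen. The labels give neither molar concentrations nor the length of exposure, and they do not say whether the controls held DMSO. Since the 8 libraries per group come from a single experiment as technical replicates, every p-value below measures the spread between these libraries and not between independent experiments.

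Serine is made from the glycolytic intermediate 3-phosphoglycerate in a short chain of reactions, and serine hydroxymethyltransferase then splits it into glycine and a one-carbon unit carried by folate. One-carbon units are oxidised in the mitochondria to formate, which leaves for the cytosol and feeds the synthesis of purines, thymidylate and methionine. Several of these genes, together with the asparagine synthetase gene, are known targets of ATF4, a transcription factor translated when amino acids are short or protein folding is impaired. In brain, serine is also the source of glycine and D-serine, and inherited loss of the serine synthesis enzymes impairs brain development.

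Recovered read totals, in kiloreads, ran from 9487 to 29627 per library (median 18943). Each of the 6 sequencing runs held 1 or 2 libraries per group, and run was a term in every fit. Replicate 8 of methyl mercury IC20/100 stood apart, with a deposited total of 20952 on the same scale, against 18108 to 18987 in the other day 10 libraries. Of 10 neuron markers, 7 were higher and 2 lower in control cultures than in NPC (all genes: 33.9% higher and 36.8% lower). Their summed level was 91136 to 98213 in control cultures and 70111 to 76430 in NPC. The 10 astrocyte markers had a summed level of 7863 to 9843 in control cultures and 5117 to 7007 in NPC. Among them, GFAP was low, at 25.7 in control cultures and 9.70 in NPC. S100B averaged 19.4 in control cultures and 74.4 in NPC, and AQP4 5.41 in control cultures and 21.6 in NPC. SLC1A3, which astrocytes share with progenitors, averaged 1941 in control cultures and 872 in NPC. In these bulk samples, fewer cells of a type and less RNA per cell cannot be told apart.

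Values below are the deposited reads per gene divided by a size factor for each library, called normalized reads here. Fold changes are differences of log2(normalized reads + 2) from limma, and a gene counts as called when its adjusted p is under 0.05. The adjustment is Benjamini-Hochberg over all genes tested, made for each comparison on its own and not across comparisons. Between genes, levels are compared only per length, in TPM, a share of all transcripts, computed from the length of all annotated exons. On that scale PSAT1 was the most abundant in control cultures at 425 ± 38 TPM (SD, n = 8). ASNS followed at 195 ± 19 TPM and SHMT2 at 178 ± 18 TPM. That order depends on the annotated lengths. PHGDH, with 9217 bases of annotated exons against 2188 for PSAT1, was at 89.4 ± 6.1 TPM. Its normalized reads in control cultures averaged 3576, against 4026 for PSAT1 and 3760 for ASNS. SHMT1 was the least abundant at 5.34 ± 2.0 TPM, below ALDH1L2 at 19.0 ± 2.3 TPM.

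Day 10 control cultures expressed most of these genes at a higher level than the progenitors. In control against NPC, PHGDH, PSAT1, SHMT2, ALDH1L2, ASNS and PYCR1 rose, SHMT1 fell, and PSPH, MTHFD2 and MTHFD1L were not called. That is 6 of 10 higher and 1 of 10 lower, where 33.9% of all 18063 genes tested were called higher and 36.8% lower (70.7% in either direction). With a fold of at least 1.5 as well, 5 were higher and 1 lower (all genes: 20.4% higher and 18.5% lower). ALDH1L2, a mitochondrial enzyme that oxidises 10-formyltetrahydrofolate, had the greatest difference of the 10: its values ran from 605 to 801 in control cultures (median 719) and from 217 to 306 in NPC (median 290), a log2 fold change of 1.33 (SE 0.088, adjusted p = 5.5e-08). PYCR1 differed by 1.14 (SE 0.084) and ASNS by 1.12 (SE 0.067). For the 7 called genes the control and NPC ranges did not overlap, and the direction was the same in all 6 runs. The 7 of 10 called are near the 70.7% of all genes called. The share of all genes with separate ranges is not given, so range overlaps here and below only describe the libraries.

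SHMT1, the cytosolic serine hydroxymethyltransferase, ran against the genes called higher. Its values were 105 to 282 in control cultures (median 154), against 287 to 610 in NPC (median 357), a log2 fold change of -1.28 (SE 0.25, adjusted p = 5.9e-04). The progenitors were in NP medium and the co-cultures in differentiation medium with added nonessential amino acids, so medium and differentiation cannot be told apart. The cell cycle marker list moved as well: all 10 of its genes were lower in control than in NPC (all genes: 36.8% lower). The summed level of the list was 14425 to 19252 in control cultures, against 39958 to 45613 in NPC. Its part in these differences was not tested. The 3 genes that were not called passed the threshold when 1 library was left out. Without NPC replicate 3, PSPH was called higher (adjusted p = 0.0403) and MTHFD1L lower (adjusted p = 0.0248). Without control replicate 7 MTHFD2 was called higher (adjusted p = 0.0148), and without control replicate 1 MTHFD1L was called lower (adjusted p = 0.0315).

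**Figure D1:**
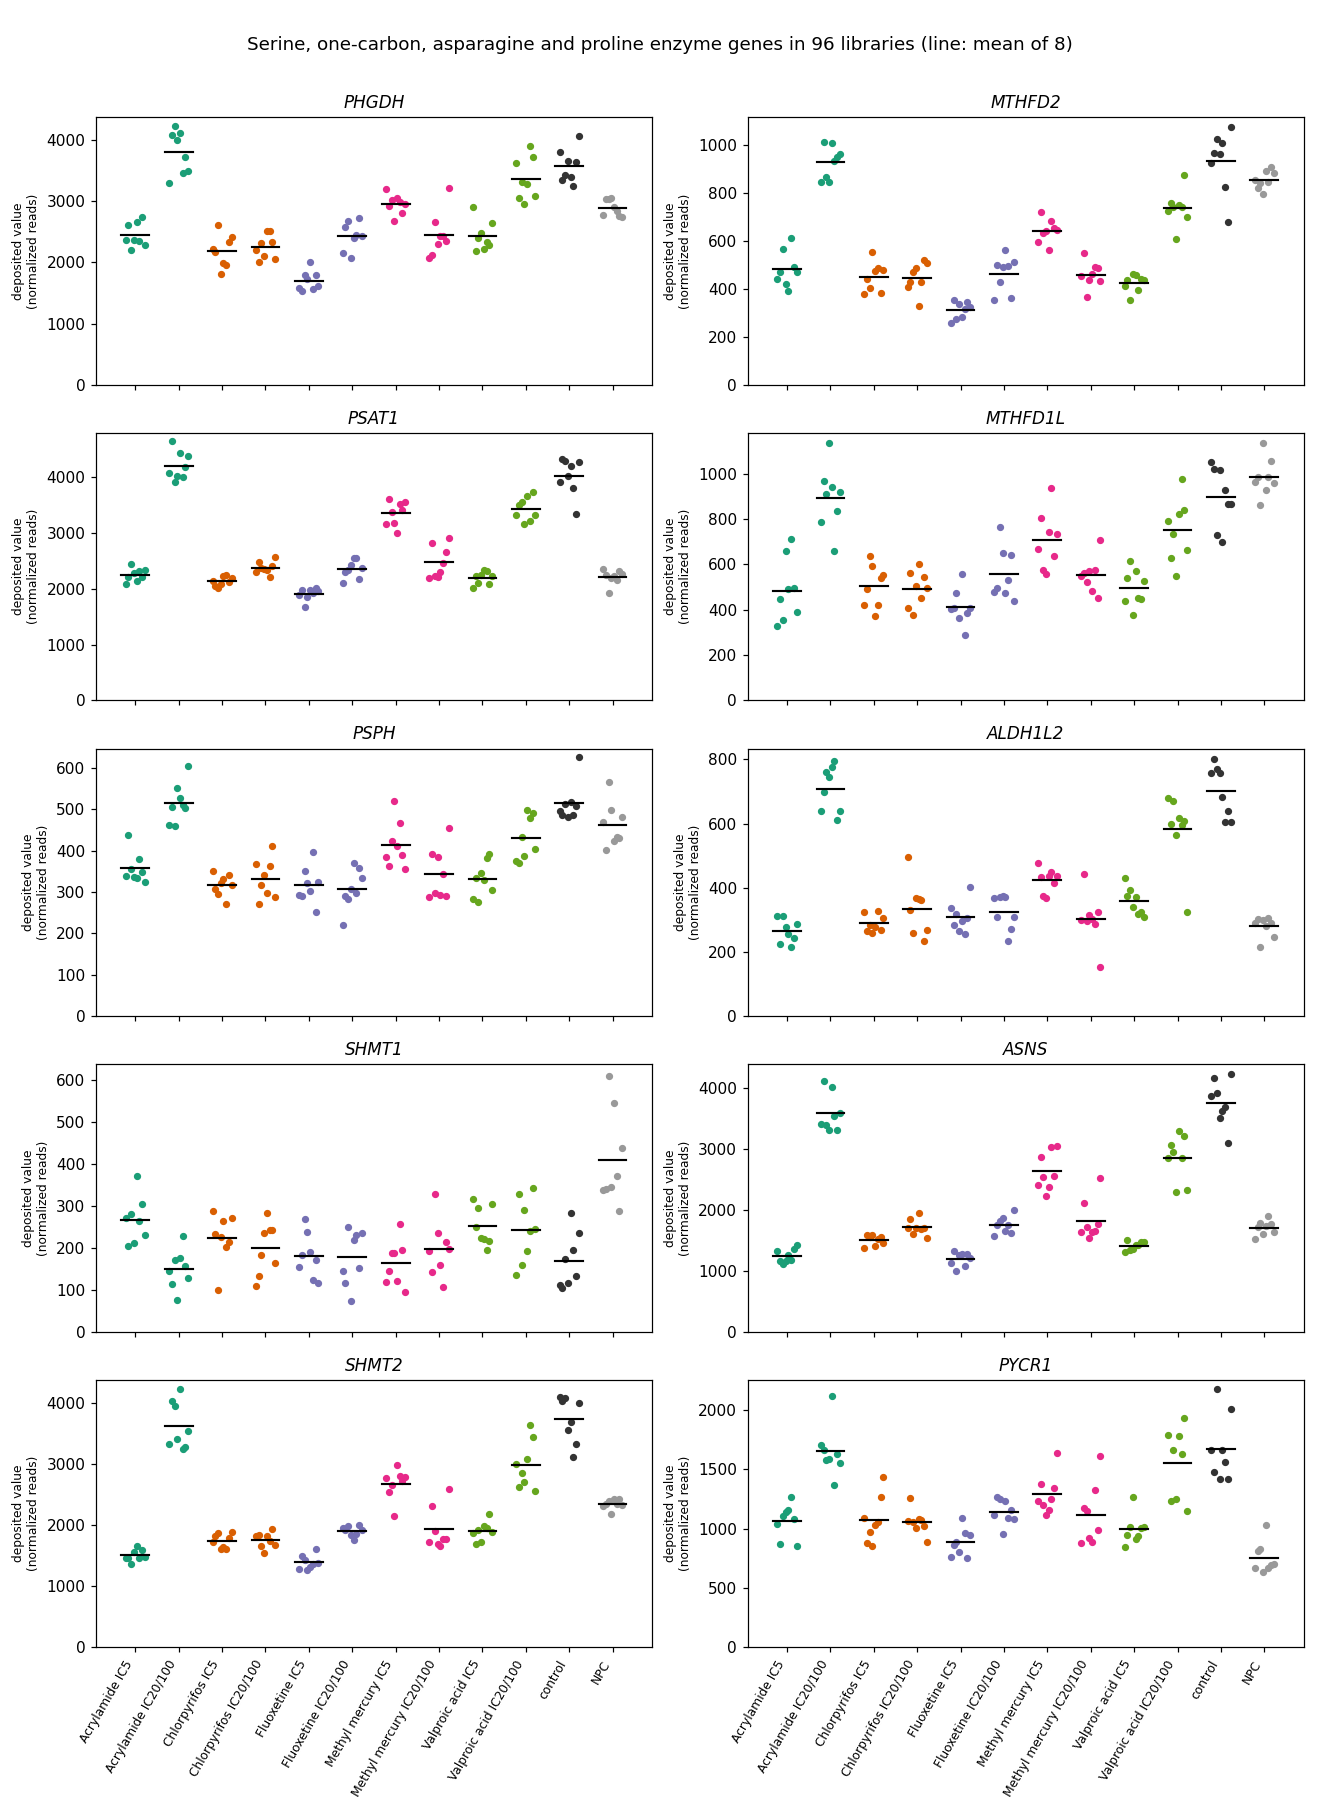
Normalized reads (vertical axis, linear, from 0) of the 10 genes in each of the 96 libraries, by group; each point is 1 library and the line is the mean of 8. Control and acrylamide IC20/100 libraries sit at the top of the day 10 groups for 9 of the genes, while SHMT1 is highest in NPC, at 287 to 610.

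At least 4 of the 10 genes were lower than in control cultures in 9 of the 10 exposed groups. The comparisons with control share the same 8 control libraries, so each is given on its own. The chlorpyrifos, fluoxetine and methyl mercury cultures held DMSO, and the labels do not say whether the controls did. In their comparisons with control, compound and solvent therefore cannot be told apart. In acrylamide IC5 cultures 9 of 10 genes fell and SHMT1 rose (all genes: 21.5% lower and 20.5% higher). In chlorpyrifos IC5 cultures 9 fell (all genes: 9.75% lower), and in chlorpyrifos IC20/100 cultures 9 fell (7.02% lower). In fluoxetine IC5 cultures 9 fell (5.94% lower), and in fluoxetine IC20/100 cultures 9 fell (7.54% lower).

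Methyl mercury IC5 gave 8 lower (all genes: 6.06% lower) and methyl mercury IC20/100 gave 9 lower (7.6% lower). Neuron markers moved there too: 6 of 10 were lower with methyl mercury IC5 and 3 of 10 with methyl mercury IC20/100, and 0 were higher. Their summed level was 80674 to 89456 with methyl mercury IC5 and 81445 to 93562 with methyl mercury IC20/100. In control cultures it was 91136 to 98213, and with acrylamide IC5 87351 to 91862. The summed level of 10 progenitor markers was 102030 to 108610 in control cultures, which overlapped its range in NPC (103960 to 110850). It lay below the control range with acrylamide IC5 (79729 to 87061), chlorpyrifos IC5 (85044 to 91592) and chlorpyrifos IC20/100 (91116 to 98689). The same held for fluoxetine IC20/100 (86244 to 94489) and methyl mercury IC5 (93291 to 100470). The ranges of the other exposed groups overlapped the control range. The part of these markers in the result was not tested. Valproic acid IC5 gave 9 lower and SHMT1 higher (12.4% lower and 14.5% higher). Valproic acid IC20/100 gave 4 lower, which were PSAT1, SHMT2, MTHFD2 and ASNS (1.37% lower), and with only the 16 libraries compared in the fit it gave 0, with log2 fold changes of -0.24, -0.30, -0.36 and -0.39 and adjusted p from 0.0568 to 0.0943. Acrylamide IC20/100 was the exception, with 0 of 10 called by limma, edgeR and DESeq2 (all genes: 0.0596% called by limma), and 0 of 10 at an unadjusted p under 0.05 (all genes: 6.58%).

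The median log2 fold change of the 10 genes ran from -1.09 in fluoxetine IC5 cultures to -0.24 in valproic acid IC20/100 cultures among the 9 exposures with calls, while the median over all genes lay between -0.0080 and 0.0063. A fold of at least 1.5 was passed downward by 9 of the 10 genes with chlorpyrifos IC5 (all genes: 2.77%), chlorpyrifos IC20/100 (1.85%) and fluoxetine IC5 (1.74%). It was passed downward by 8 with methyl mercury IC20/100 (1.82%) and valproic acid IC5 (2.28%), and by 7 with acrylamide IC5 (8.98%) and fluoxetine IC20/100 (1.82%). The count was 1 with methyl mercury IC5 (1.78%) and 0 with valproic acid IC20/100 (0.144%). SHMT1 passed it upward with acrylamide IC5 (all genes: 5.51%) and valproic acid IC5 (4.52%). As a share of the control mean, the 9 genes other than SHMT1 stood at a median of 45.8% in fluoxetine IC5 cultures (31.7% to 61.6%). They stood at 54.0% in acrylamide IC5 cultures (33.2% to 69.4%) and at 77.2% in methyl mercury IC5 cultures (60.3% to 83.4%). In acrylamide IC20/100 cultures they stood at 99.8% (95.4% to 106%), and in NPC at 62.8% (39.8% to 110%).

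**Figure D2:**
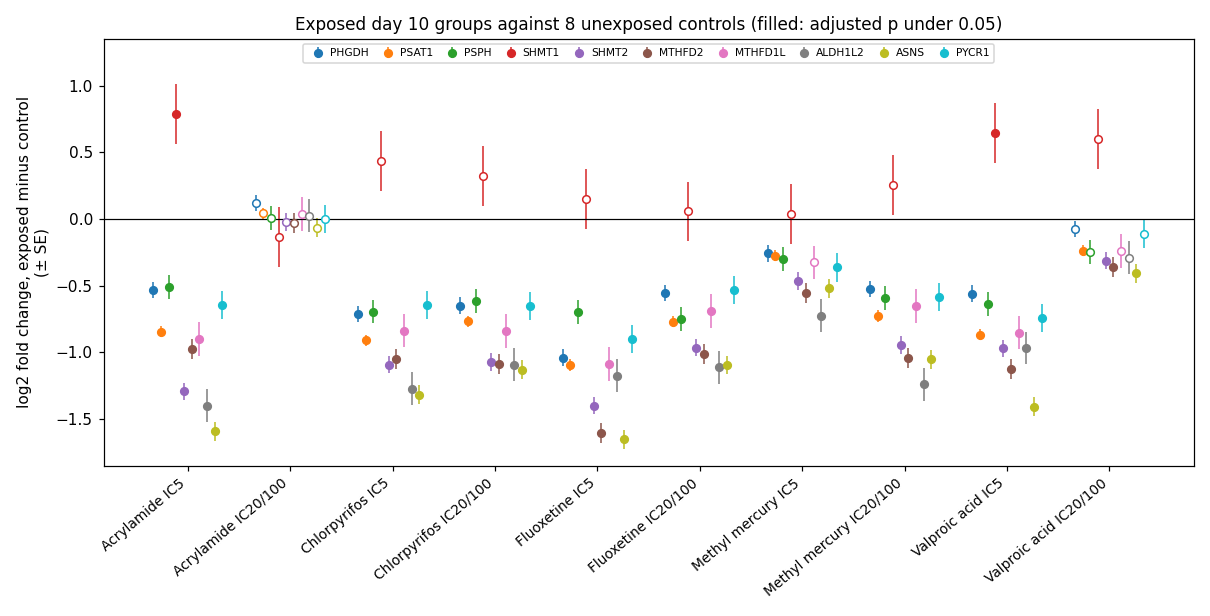
Log2 fold change of exposed over control cultures (vertical axis, ± SE) for the 10 genes in the 10 exposed groups; filled points have an adjusted p under 0.05. In 9 exposed groups filled points lie below 0, from -0.24 to -1.65, acrylamide IC20/100 has none, and SHMT1 is the only gene with filled points above 0.

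PHGDH, PSAT1 and PSPH are the dehydrogenase, the aminotransferase and the phosphatase that make serine. PHGDH, the first and committed step, ran from 1532 to 2011 normalized reads in fluoxetine IC5 cultures (median 1667), against 3252 to 4064 in control cultures (median 3538). Its log2 fold change there was -1.04 (SE 0.061, adjusted p = 1.3e-24), and it fell in 8 of the 10 exposures, each time with ranges that did not overlap the control range. The exceptions were acrylamide IC20/100 (0.12) and valproic acid IC20/100 (-0.07).

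PSAT1 had the smallest relative spread of the 10 genes in 7 of the 12 groups, with a coefficient of variation of 4.00% in chlorpyrifos IC5 cultures and 8.26% in control cultures. Its values were 1684 to 2015 in fluoxetine IC5 cultures (median 1943), 2093 to 2440 in acrylamide IC5 cultures (median 2254) and 3348 to 4326 in control cultures (median 4112). PSAT1 fell in 9 exposures, and the log2 fold change was as small as -0.24 in valproic acid IC20/100 cultures (SE 0.042, adjusted p = 1.5e-04). PSAT1 in NPC averaged 2214 ± 132, a level within the range of group means of the chlorpyrifos, fluoxetine and IC5 valproic acid cultures (1911 to 2382).

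PSPH removes the phosphate in the last step. It averaged 308 ± 47.4 in fluoxetine IC20/100 cultures and 515 ± 47.2 in control cultures, a log2 fold change of -0.75 (SE 0.089, adjusted p = 4.1e-10), and it fell in 8 exposures. Control replicate 8, at 627, lay above the other controls at 482 to 519. Without it the methyl mercury IC5 call was lost (log2 fold change -0.27, adjusted p = 0.0501, against -0.30 and 0.0186 with it).

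SHMT2 is the mitochondrial serine hydroxymethyltransferase, which feeds the mitochondrial one-carbon pathway. It ran from 1267 to 1604 in fluoxetine IC5 cultures (median 1375), from 1368 to 1658 in acrylamide IC5 cultures (median 1475) and from 3112 to 4088 in control cultures (median 3843). The ranges did not overlap, and the log2 fold changes were -1.40 with fluoxetine IC5 and -1.29 with acrylamide IC5 (SE 0.066 for both). SHMT2 fell in 9 exposures, and its exposed and control ranges did not overlap in 8 of them.

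SHMT1, its cytosolic counterpart, did not fall in any exposure. It rose in acrylamide IC5 cultures, at 204 to 370 normalized reads (median 267) against 105 to 282 in control cultures (median 154), a log2 fold change of 0.78 (SE 0.23, adjusted p = 0.0030). It also rose in valproic acid IC5 cultures, by 0.64 (SE 0.22, adjusted p = 0.0232). The exposed and control ranges overlapped in all 10 exposures. SHMT1 had the lowest mean TPM of the 10 genes in 10 of the 12 groups (ALDH1L2 was lower in acrylamide IC5 cultures and in NPC). Its normalized reads had a coefficient of variation of 38.4% in control cultures. The valproic acid IC5 call was lost without control replicate 1 (adjusted p = 0.0688) or without control replicate 2 (adjusted p = 0.0719). SMCR8, which overlaps SHMT1 on the opposite strand, was also higher in acrylamide IC5 cultures, at 843 ± 49.3 against 632 ± 33.0 in control cultures (log2 fold change 0.41), and with valproic acid IC5 (0.17). SMCR8 rose as well where SHMT1 was not called, by 0.42 with chlorpyrifos IC5, 0.39 with chlorpyrifos IC20/100, 0.37 with fluoxetine IC5, 0.32 with fluoxetine IC20/100, 0.29 with methyl mercury IC5 and 0.26 with methyl mercury IC20/100. In control against NPC it fell by 0.66, the direction of SHMT1. The library kit keeps strand, but no source used here gives the strand setting of the quantification, so reads shared between SMCR8 and SHMT1 were not tested.

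MTHFD2, MTHFD1L and ALDH1L2 carry the mitochondrial one-carbon units onward: MTHFD2 oxidises methylene-tetrahydrofolate, MTHFD1L releases formate, and ALDH1L2 releases carbon dioxide. MTHFD2 had its lowest values in fluoxetine IC5 cultures, at 257 to 355 (median 321), against 681 to 1077 in control cultures (median 967). With a log2 fold change of -1.60 (SE 0.075, adjusted p = 3.9e-30) it was at 0.33 of the control level. MTHFD2 fell in 9 exposures.

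MTHFD1L fell in 7 exposures, the same as MTHFD2 except methyl mercury IC5 and valproic acid IC20/100. Its values were 289 to 558 in fluoxetine IC5 cultures (median 405) and 697 to 1049 in control cultures (median 896), a log2 fold change of -1.09 (SE 0.13, adjusted p = 1.6e-10). Replicates scattered more than for MTHFD2, so the exposed and control ranges were separate in 4 exposures only. With only the methyl mercury IC5 and control libraries in the fit, MTHFD1L was called lower there too (log2 fold change -0.31, adjusted p = 0.0335, against -0.33 and 0.0863).

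ALDH1L2 reached its lowest group mean in acrylamide IC5 cultures, at 215 to 312 (median 266), against 605 to 801 in control cultures (median 719). That is a log2 fold change of -1.40 (SE 0.12, adjusted p = 3.7e-16). It fell in 8 exposures with no overlap with the control range. In valproic acid IC20/100 cultures it was not called (-0.29, adjusted p = 0.239), and 1 library there, replicate 8, was at 325 against 564 to 679 in the other 7.

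ASNS makes asparagine from aspartate and glutamine and is a textbook ATF4 target. Its fold change was the most negative of the 10 genes in 6 of the 9 exposures with calls, and ALDH1L2 held that place in the other 3. ASNS ran from 996 to 1324 normalized reads in fluoxetine IC5 cultures (median 1236), from 1110 to 1423 in acrylamide IC5 cultures (median 1224) and from 1300 to 1502 in valproic acid IC5 cultures (median 1428). The controls were at 3092 to 4228 (median 3778), so the highest of these exposed libraries lay below the lowest control.

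The log2 fold changes of ASNS were -1.65 with fluoxetine IC5 (SE 0.071, adjusted p = 4.7e-32), -1.59 with acrylamide IC5 and -1.41 with valproic acid IC5. In NPC it was at 1515 to 1893 (median 1723). From highest to lowest, the group means were 3760 in control, 3586 in acrylamide IC20/100, 2853 in valproic acid IC20/100 and 2632 in methyl mercury IC5 cultures. The remaining 7 exposed groups and NPC followed between 1823 and 1193. Of the 11 pairs of neighbours in that order, only acrylamide IC20/100 and valproic acid IC20/100 had ranges that did not overlap.

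An uncharacterised transcript, ENSG00000284707, overlaps ASNS on the same strand, and a short read from the shared stretch could be assigned to either. It held 21.6% of the summed reads of both in fluoxetine IC5 cultures and 7.07% in control cultures, and its own level was 327 ± 72.5 in fluoxetine IC5 cultures and 287 ± 52.9 in control cultures. With both added together the means were 1520 in fluoxetine IC5 cultures and 4047 in control cultures, a log2 ratio of -1.41. These are ratios of group means, not fitted fold changes. The summed log2 ratios were -1.43 with acrylamide IC5, -1.20 with chlorpyrifos IC5, -0.93 with chlorpyrifos IC20/100, -1.24 with valproic acid IC5 and -0.34 with valproic acid IC20/100. Set beside the fold changes of the other 9 genes, the sum was the most negative only with acrylamide IC5 and valproic acid IC5. Pseudogene copies of the 10 genes had means of at most 4.66 normalized reads.

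The promoter of ASNS is known for an amino acid response element, to which ATF4 binds with a C/EBP partner, and the core of such elements was searched in the RefSeq promoter sequences (GRCh38.p14). The motif TGATGNAA was sought on both strands in the 250 bases before each start site. It was found in 3.14% of all 35116 promoters and for 3.89% of 27305 gene symbols. Of the 10 genes, 6 were in the table (PHGDH, PSAT1, SHMT1, MTHFD2, MTHFD1L and ASNS), and ASNS and MTHFD1L held a match. The 60 bases around each match are shown because these letters sit in promoters of genes that fell, with the match in capitals and read on the strand of the gene.
ASNS, chr7:97872443-97872502, minus strand: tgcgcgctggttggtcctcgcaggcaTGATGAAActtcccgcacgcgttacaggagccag
MTHFD1L, chr6:150866331-150866390, plus strand: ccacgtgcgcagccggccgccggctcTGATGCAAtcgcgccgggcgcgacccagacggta
The ASNS match lies at -68 to -61 from 1 of its 2 listed starts. The MTHFD1L match lies at -129 to -122 from 1 listed start and -90 to -83 from another, out of 4. PHGDH, PSAT1, SHMT1 and MTHFD2 held no match in this window, and no binding was measured here.

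PYCR1, a mitochondrial enzyme that completes proline synthesis, had a fold change nearer to 0 than ASNS in all 8 exposures in which it was called. Its values were 751 to 1090 in fluoxetine IC5 cultures (median 875), against 1418 to 2178 in control cultures (median 1610), a log2 fold change of -0.90 (SE 0.10, adjusted p = 1.7e-10). The exposed and control ranges were separate in 5 of the 8. In methyl mercury IC5 cultures the call was lost without control replicate 3 (log2 fold change -0.31, adjusted p = 0.0532, against -0.36 and 0.0133), and in methyl mercury IC20/100 cultures it was lost with only the libraries compared (adjusted p = 0.0548, log2 fold change -0.61).

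Both exposure levels were compared within each compound, and differences of these contrasts between compounds were not tested. Acrylamide IC5 cultures had 9 genes lower and SHMT1 higher than acrylamide IC20/100 cultures (all genes: 21.1% lower, 20% higher), with ASNS at 1248 ± 111 against 3586 ± 311 (log2 fold change -1.53, SE 0.071). Valproic acid IC5 cultures had 9 genes lower than IC20/100 cultures (7.27% lower), with ASNS at 1412 ± 73.5 against 2853 ± 372 (adjusted p = 1.1e-19). Fluoxetine IC5 cultures had 6 genes lower (1.46% lower): PHGDH, PSAT1, SHMT2, MTHFD2, ASNS and PYCR1. The PYCR1 call was lost with no filter on low values (log2 fold change -0.37, adjusted p = 0.0580, against 0.0293).

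In the fluoxetine comparison MTHFD2 averaged 312 ± 35.9 at IC5 and 463 ± 74.1 at IC20/100 (log2 fold change -0.59, SE 0.075, adjusted p = 1.1e-08). ALDH1L2 and PSPH differed by -0.06 and 0.05 and were not called. MTHFD1L differed by -0.40 (adjusted p = 0.0606), and without methyl mercury IC20/100 replicate 8 it was called (adjusted p = 0.0439). The chlorpyrifos levels gave 0 calls among the 10 genes by limma, and 0 by edgeR and DESeq2 (all genes: 0.0497% called by limma). At an unadjusted p under 0.05 there were 2 of 10, where 6.98% of all genes passed. The 95% intervals of that difference were -0.33 to -0.05 for ASNS and -0.22 to -0.06 for PSAT1, before adjustment.

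Methyl mercury ran the other way. PHGDH, PSAT1, PSPH, SHMT2, MTHFD2, ALDH1L2 and ASNS were higher in methyl mercury IC5 than in IC20/100 cultures (all genes: 2.58% higher), by 0.26 to 0.53 on the log2 scale. ASNS averaged 2632 ± 309 at IC5 and 1823 ± 330 at IC20/100 (log2 fold change 0.53, SE 0.071, adjusted p = 1.1e-07). Replicate 8 of methyl mercury IC20/100 was at 2520, and without it the other 7 averaged 1723 ± 185. The same library was low for ALDH1L2, at 153, where the other 7 averaged 324 ± 54.1. Without that library the count stayed at 7, and with only the 16 methyl mercury libraries in the fit 2 of the 10 genes were called, PSAT1 and MTHFD2.

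At IC20/100 the compounds were also compared by solvent. Cultures that received the DMSO compounds chlorpyrifos, fluoxetine and methyl mercury had 9 of the 10 genes lower than cultures that received acrylamide or valproic acid in medium (all genes: 9.05% lower). ALDH1L2 averaged 321 ± 71.0 in the 24 DMSO libraries and 645 ± 111 in the 16 medium libraries (log2 fold change -1.01, SE 0.079, adjusted p = 5.7e-18). ASNS averaged 1765 ± 214 in the DMSO libraries and 3220 ± 503 in the medium libraries (-0.86, SE 0.046). SHMT1 was level at 191 ± 62.4 and 195 ± 76.9 (-0.02, 95% interval -0.30 to 0.26). Solvent and compound cannot be told apart here, and the groups analysed include none given DMSO alone.

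The 3 DMSO compounds were set against each other at IC20/100, which is a nominal level and not a matched concentration. Each of the 3 pairs had 0 of 10 genes called by limma, edgeR and DESeq2. Over all genes, 0.0248% were called for chlorpyrifos against fluoxetine, 0.00497% for chlorpyrifos against methyl mercury and 0.0199% for fluoxetine against methyl mercury. At an unadjusted p under 0.05 the counts were 0 of 10 for chlorpyrifos against fluoxetine (all genes: 6.5%), 1 of 10 for chlorpyrifos against methyl mercury (11.2%) and 0 of 10 for fluoxetine against methyl mercury (13.7%). For ASNS the 95% interval of the difference was -0.18 to 0.10 for chlorpyrifos minus fluoxetine, -0.22 to 0.06 for chlorpyrifos minus methyl mercury and -0.18 to 0.10 for fluoxetine minus methyl mercury. For SHMT1 the intervals were wide, as in chlorpyrifos minus fluoxetine at -0.18 to 0.70.

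Of 12 further folate enzymes and carriers, 3 were called lower and 5 higher with acrylamide IC5 (all genes: 21.5% lower and 20.5% higher). With chlorpyrifos IC5 0 were lower and 3 higher (9.75% lower and 9.92% higher), and with fluoxetine IC5 0 were lower and 1 higher (5.94% lower and 5.47% higher). With methyl mercury IC5 1 was lower and 1 higher (6.06% lower and 4.85% higher), and with valproic acid IC5 0 were lower and 4 higher (12.4% lower and 14.5% higher). ALDH1L1 was called lower in 1 exposure, acrylamide IC5 (log2 fold change -1.34, adjusted p = 0.0117), and higher in 0. Its levels were low, at 5.01 ± 4.32 there and 18.9 ± 15.7 in control cultures. SFXN3 fell with acrylamide IC5 (-0.92), methyl mercury IC5 (-0.70) and chlorpyrifos IC20/100 (-0.32), and rose with valproic acid IC5 (0.39). MTHFD1, the cytosolic trifunctional enzyme, was called higher in 1 exposure and lower in 0, with log2 fold changes from -0.06 to 0.27. MTHFD2L, a mitochondrial relative of MTHFD2, was called in 0 of 10 exposures (-0.15 to 0.15). TYMS, which makes thymidylate for DNA synthesis, was called higher in 7 exposures and lower in 0.

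TYMS is also on the cell cycle marker list, of which 9 of 10 genes rose with acrylamide IC5 (all genes: 20.5% higher). The summed level of that list was 24226 to 27826 in acrylamide IC5 cultures, against 14425 to 19252 in control cultures. With fluoxetine IC5, where the enzyme genes fell furthest, 2 of 10 rose (all genes: 5.47% higher), and the sum was 15361 to 17564. Over the 9 exposures with calls among the enzyme genes, 2 to 9 of the 10 cell cycle markers rose and 0 fell. Of all genes, 1.37% to 21.5% were called lower in these exposures. The share called higher was 4.85% with methyl mercury IC5 and 14.5% with valproic acid IC5, and is not given for every exposure. The part of proliferating cells in the fall of the enzyme genes was not tested.

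PYCR3, a further enzyme of proline synthesis, was unlike PYCR1: it was called higher in 7 exposures and lower in 0, with log2 fold changes up to 0.83 with acrylamide IC5. PYCR3 averaged 264 ± 12.9 in acrylamide IC5 cultures and 150 ± 23.0 in control cultures. Among 10 proline, asparagine and serine genes outside the group, GPT2, an alanine aminotransferase of mitochondria, fell in 8 exposures, down to -0.77 with fluoxetine IC5. PRODH, which breaks proline down, rose by 1.03 with fluoxetine IC5 (adjusted p = 2.2e-09) and fell by 0.52 with valproic acid IC5 (adjusted p = 0.0010).

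**Figure D3:**
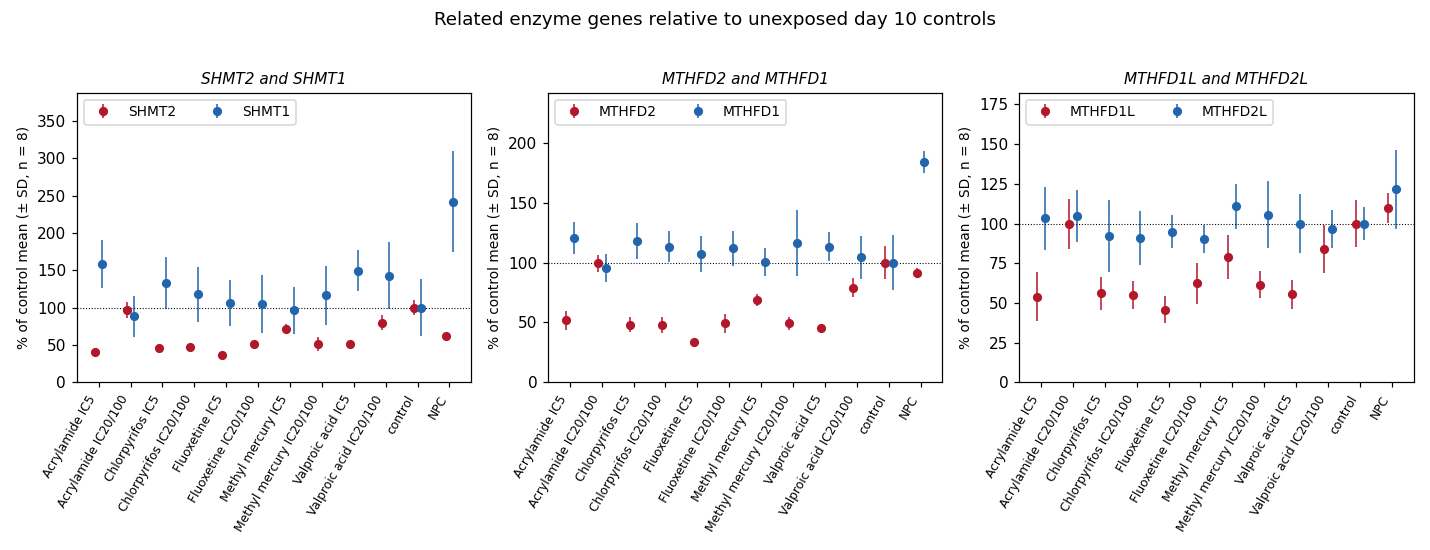
Group means as a percentage of the control mean (vertical axis, ± SD, n = 8) for SHMT2 and SHMT1, MTHFD2 and MTHFD1, and MTHFD1L and MTHFD2L in the 12 groups; the dotted line marks 100%. In the 9 exposed groups other than acrylamide IC20/100 the first gene of each pair (red) lies at 33.3% to 83.7%, below the second (blue), and SHMT1 and MTHFD1 are highest in NPC.

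CBS, which commits homocysteine to cysteine synthesis and uses serine to do so, fell in 7 exposures. It averaged 564 ± 74.0 in fluoxetine IC5 cultures and 1207 ± 87.3 in control cultures (log2 fold change -1.08, adjusted p = 7.7e-22). In valproic acid IC5 cultures, where 9 of the 10 enzyme genes fell, CBS averaged 1256 ± 102 and was not called. The 5 purine synthesis genes that use or neighbour one-carbon steps had 1 lower with methyl mercury IC20/100 (PAICS, -0.11, adjusted p = 0.014; all genes: 7.6% lower) and 0 lower in the other exposures. Of the 5, 3 were higher with valproic acid IC5 (all genes: 14.5% higher), 1 with acrylamide IC5 (20.5%) and 1 with chlorpyrifos IC20/100 (7.06%).

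ATF4, its regulators and genes known to respond to it were also mostly lower in the exposed groups counted here, except acrylamide IC20/100. Of 20 regulators and targets, 16 fell and 0 rose with acrylamide IC5 (all genes: 21.5% lower). With fluoxetine IC5 16 fell and 1 rose (5.94% lower), and with valproic acid IC5 17 fell and 1 rose (12.4% lower). The gene that rose was EIF2AK4 in both, by 0.15 and 0.17. With valproic acid IC20/100 14 fell and 0 rose (1.37% lower), and 0 were called with acrylamide IC20/100. List counts for the other exposures are not given. The valproic acid IC20/100 count is from the fit of 88 libraries. With only the libraries compared, 22 of all genes were called there instead of 511, and the list count is not given for that fit. ATF4 mRNA itself fell in 8 exposures, by 0.16 to 0.53 on the log2 scale. It averaged 3768 ± 187 in fluoxetine IC5 cultures and 5447 ± 236 in control cultures, a log2 fold change of -0.53 (SE 0.056, adjusted p = 4.1e-12). DDIT3, which encodes the stress factor CHOP, averaged 223 ± 15.7 in fluoxetine IC5 cultures and 560 ± 106 in control cultures (log2 fold change -1.30, SE 0.11).

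In control against NPC, 15 of the 20 genes on the ATF4 list were higher and 3 lower (all genes: 33.9% higher and 36.8% lower), and ATF4 mRNA was among the lower, at 5447 ± 236 in control cultures and 5965 ± 199 in NPC (log2 fold change -0.14, SE 0.030, adjusted p = 0.0013). DDIT3 rose by 1.39 (SE 0.12), to 560 ± 106 in control cultures, against 208 ± 12.1 in NPC. MYCN was called higher in 7 exposures, up to 0.26, and MYC in 0.

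The genes most like each enzyme gene were sought among 14009 genes by Pearson's r over the 88 day 10 libraries, with run removed. These values describe the libraries, which share the group differences given above. For ASNS the nearest genes were PSAT1 (r = 0.969), SLC7A5 (0.967), SHMT2 (0.967), ATF5 (0.963) and YARS1 (0.962). SLC7A5 carries large neutral amino acids, and YARS1 charges the tyrosine tRNA. PHGDH was nearest to YARS1 (0.921) and MTHFD2 to PSAT1 (0.949), while ALDH1L2 was nearest to SLC7A1 (0.908), a carrier of cationic amino acids. SHMT1 had no close partner: its nearest gene was CACYBP (0.544), followed by the replication and centromere genes CENPU (0.533) and GINS2 (0.526).

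Over the 88 libraries the 36 pairs among the 9 genes other than SHMT1 had r from 0.663 to 0.969 (median 0.833). Within groups, after the group means were taken out, the same pairs had r from -0.326 to 0.681 (median 0.235), and from -0.172 to 0.646 (median 0.203) without methyl mercury IC20/100 replicate 8. The 9 pairs with SHMT1 had r from -0.340 to -0.155 over the 88 libraries. The values over the 88 libraries hold the group differences given above. Those within groups are pooled over the technical replicates of all day 10 groups, so no conclusion is drawn from the gap.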

How the data were processed

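The deposited table holds 58434 genes in 96 libraries. Its values are a signal that the authors obtained by scaling each library's gene counts with its own size factor: in every column 100% of positive values were whole multiples of 1 step, within 0.001 read, so whole reads could be recovered. Per the submitters' processing notes, bcl2fastq, FastQC 0.11.8, MultiQC 1.0, Salmon 1.3.0 and DESeq2 1.30.0 were used with GRCh38, and no source used here names the annotation release. Among 336 pairs of libraries within a group, the lowest chi-square of recovered reads per degree of freedom was 16.6, so none were copies.

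Under R 4.3.3, limma 3.58.1 tested log2(deposited value + 2) with its trended prior and terms for group and sequencing run. A gene entered if it reached 10 in 8 or more libraries. Control and NPC were fitted together in 16 libraries (18063 genes, 9 residual degrees of freedom). All other comparisons used 1 fit of the 88 libraries from day 10 (20136 genes, residual degrees of freedom 72). The test was checked on simulated data. Intervals of 95% are from the limma standard error. TPM was computed here from the deposited values and GENCODE 29 exon lengths.

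The members, gene lists and tests were chosen with earlier results of these data known. From each list, the rule names the called genes with the greatest rise and fall in a comparison, at most 2 each way, plus ATF4 and DDIT3. Likeness was ranked by Pearson's r, 5 genes each, among genes with a mean of at least 50. List members outside the rule, such as the isozymes, were named after their values were seen. Alternatives were pseudocounts of 0.5 and 10, no filter, a filter at 50, TMM scaling, edgeR 4.0.16 and DESeq2 1.42.0 on recovered reads, no run term, a replicate block in place of run, only the libraries compared, and single libraries left out. Some genes of these lists are not reported here by name.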

Additional observations from a re-analysis of the deposited data

Results flagged for a closer look

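In 5 of the 120 sets of 8 libraries tested for the 10 genes, 1 library lay far from the others, with a gap to its nearest neighbour over 0.526 of the whole range (Dixon's 95% value for 8); chance alone gives about 1 such set in 20. PSPH in control replicate 8 was at 627, against 482 to 519 in the other 7. SHMT1 in chlorpyrifos IC5 replicate 3 was at 99.5, against 203 to 287. ALDH1L2 in valproic acid IC20/100 replicate 8 was at 325, against 564 to 679. PYCR1 in acrylamide IC20/100 replicate 5 was at 2118, against 1368 to 1707. PYCR1 in valproic acid IC5 replicate 4 was at 1269, against 850 to 1019.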

How the results depend on the processing

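Of the counts of enzyme genes called, those that changed by over 1.5 times were valproic acid IC20/100 against control, which was 0 instead of 4 with only the libraries compared, and methyl mercury IC5 against IC20/100, which was 2 instead of 7 with only the libraries compared; fewer libraries enter those fits. No result reversed. Among single-gene results under the alternatives, 17 lost their call, 10 gained one and 3113 kept their side of the threshold. The replicate numbers do not pair the libraries: same-numbered deviations correlated with medians from -0.061 to 0.038 over 19 comparisons with run removed, and in 0 of 19 was every pair over 0.1. With a replicate block in place of run, MTHFD1L in fluoxetine IC5 against IC20/100 was called (log2 fold change -0.44, adjusted p = 0.0482, against -0.40 and 0.0606), and no other call among the 10 genes changed. Counts over all genes moved more: with only the libraries compared, methyl mercury IC20/100 against control gave 351 instead of 3185, valproic acid IC20/100 against control 22 instead of 511, methyl mercury IC5 against IC20/100 27 instead of 1042, and fluoxetine IC5 against IC20/100 450 instead of 758. Without methyl mercury IC20/100 replicate 8, valproic acid IC20/100 against control gave 925 and fluoxetine IC5 against IC20/100 gave 1175. The smallest counts ranged from 0 to 28 around 12 for acrylamide IC20/100 against control, from 2 to 62 around 10 for chlorpyrifos IC5 against IC20/100, from 0 to 58 around 5 for chlorpyrifos against fluoxetine, from 0 to 108 around 1 for chlorpyrifos against methyl mercury, and from 0 to 124 around 4 for fluoxetine against methyl mercury. SHMT1 had the lowest mean TPM of the 10 genes in 10 of the 12 groups.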
